A study of Mus musculus with 19 samples.

Results

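A set of 10 tubulin genes that are known in neurons was followed in ribosome-bound mRNA of spinal cord cholinergic neurons over the day. It held 4 alpha-tubulin genes (Tuba1a, Tuba1b, Tuba1c and Tuba4a) and 6 beta-tubulin genes (Tubb2a, Tubb2b, Tubb3, Tubb4a, Tubb4b and Tubb5), taken by their symbols as 10 rows of a table of 50559 genes. All the animals were 10-wk-old C57BL/6J males that carried ChAT-Cre and 1 RiboTag allele (RiboTag fx/+) and were kept in 12 h of light and 12 h of darkness. In any cell in which Cre, here under control of the Chat gene, has acted, RiboTag fuses a ribosomal protein to hemagglutinin, so that precipitating the tag recovers mRNA from cholinergic cells of every kind. Spinal cords were taken at Zeitgeber time (ZT) 0, 4, 8, 12, 16 and 20, counted in hours from lights on, with 3 animals for each time and 1 cord for each library. A single further library was pooled input, RNA of whole cord homogenate that had not been precipitated, and no group without the tag, without Cre or under treatment was part of the comparison.

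Microtubules are hollow polymers of dimers that hold 1 alpha-tubulin and 1 beta-tubulin. Neurons use them as the scaffold and the transport track of the axon, and motor neurons, which form a large part of the cholinergic cells of the cord, have axons that reach the muscle. The isotypes differ mainly in their acidic tails, where enzymes add or remove tyrosine and chains of glutamate. Tubulin mRNA is also known to be destroyed when free tubulin is in excess, through a factor, TTC5, that reads the first residues of the growing chain on the ribosome and brings in SCAPER and the CCR4-NOT deadenylase.

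The libraries of the immunoprecipitates held between 6302140 and 22406850 counts and the input 15239783. Cholinergic markers were at least 2-fold higher in the immunoprecipitates than in the input, with all 18 libraries above it, for 6 of 7 genes. Among them was Prph, an intermediate filament of motor neurons, at 2952 ± 341 CPM (SD, n = 18) against 116. Chat, the acetylcholine-synthesizing enzyme, was at 39.0 ± 20.9 against 12.9. It was not called, since its lowest library, at 8.30 CPM, was below the input. All 7 oligodendrocyte, 6 astrocyte, 6 microglia and 4 endothelial markers were lower than in the input by the same rule. Of the 16828 genes compared, 14.0% were higher and 25.4% lower. The myelin gene Mbp, at 661 ± 117 CPM against 11041, was still present. The first principal component held 52.8% of the variance over 9214 genes, with its sign set to go with Tubb5. ZT8 replicates 2 and 3 were the lowest of the 18 libraries, at -42.6 and -29.7. ZT4 replicate 2 was next, at -19.9, and ZT8 replicate 1 was at -5.03. Calls of the members and of the gene lists are also given without ZT8 replicate 2 or 3, and the levels and ratios of members include both. Since only relative levels were measured, less mRNA on the ribosomes of each cell and fewer tagged cells cannot be told apart.

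The coding sequences of the members carried the features that this biology turns on. The first codons, which encode the stretch that TTC5 reads, are shown because they are the one part of the mRNA on which the known feedback acts. The coding strand runs 5′ to 3′ from the start codon, and capitals mark codons 2 to 4.
Tuba1a: atgCGTGAGTGC
Tuba4a: atgCGCGAGTGC
Tubb2a: atgCGCGAGATC
Tubb2b: atgCGAGAGATC
Tubb3: atgAGGGAGATC
Tubb4a: atgCGGGAAATC
Tubb5: atgAGGGAAATC
Tuba1b and Tuba1c had the same 12 bases as Tuba1a, and Tubb4b the same as Tubb3. The alpha members thus ended in TGC here and the beta members in ATC.

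The 3′ ends of the coding sequences are shown for 4 members because they encode the acidic tails in which the isotypes differ. The last 63 bases run 5′ to 3′ and include the stop codon, and capitals mark the last sense codon.
Tuba4a: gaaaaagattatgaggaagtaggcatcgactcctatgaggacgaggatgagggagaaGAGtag
Tubb3: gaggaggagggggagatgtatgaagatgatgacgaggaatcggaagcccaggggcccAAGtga
Tubb4a: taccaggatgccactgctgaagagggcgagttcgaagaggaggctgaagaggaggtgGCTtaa
Tubb5: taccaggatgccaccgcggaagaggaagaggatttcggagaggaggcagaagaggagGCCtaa
The last sense codon encodes tyrosine in Tuba1a, Tuba1b and Tuba1c, but not in Tuba4a, whose last codon is GAG. Coding identity was between 84.7% and 98.3% for the 6 pairs of alpha members, between 81.5% and 96.5% for the 15 pairs of beta members, and between 55.8% and 57.7% for the 24 mixed pairs. The closest pairs were Tuba1a with Tuba1b (98.3%), Tuba1b with Tuba1c (97.9%), Tuba1a with Tuba1c (97.1%) and Tubb2a with Tubb2b (96.5%). Of all 150-base windows, the read length used, 54.7% of the Tuba1a transcript, 57.9% of Tuba1b and 46.7% of Tuba1c also occurred in another gene, in each other or in predicted copies. This share was 27.9% for Tubb2a, 20.1% for Tubb2b and 16.8% for Tubb4b, and it was 0 for Tuba4a, Tubb3, Tubb4a and Tubb5. The counts of the first 6 genes therefore depended on how reads were divided between copies, and those of the last 4 did not.

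The genes lie on 6 chromosomes of GRCm38 (mm10). The 3 close alpha members sit side by side on chromosome 15, Tuba1b at chr15:98931425-98934565 and Tuba1a at chr15:98949837-98953703 on the minus strand and Tuba1c at chr15:99029891-99038110 on the plus strand. Tubb2a (chr13:34074274-34078007) and Tubb2b (chr13:34126748-34130466) are neighbors on the minus strand of chromosome 13. Tubb5 (chr17:35833921-35838306) and Tubb4a (chr17:57080066-57087782) are both on the minus strand of chromosome 17, farther apart. Tuba4a lies at chr1:75214228-75219865 and Tubb4b at chr2:25222160-25224702, both on the minus strand, and Tubb3 at chr8:123411424-123422015 on the plus strand.

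Together the 10 genes took between 1.70% and 2.19% of all counts in the immunoprecipitates, 1.93% ± 0.137 (SD, n = 18), against 0.701% in the input. Levels were then compared per kilobase of exon, as CPM (counts relative to the scaled library total) by TMM and divided by the merged exon length. Tuba1b was at 2220 ± 242 CPM per kb (SD, n = 18) and Tubb3, the beta-tubulin used as a marker of neurons, at 2191 ± 229. They could not be ordered, since Tuba1b was the higher of them in 9 of 18 libraries. Tuba1a, the main alpha-tubulin of developing neurons, followed at 1903 ± 163, below Tubb3 in all 18 libraries although the ranges overlapped.

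A second tier held 5 genes. Tubb2a was at 1028 ± 83.5 CPM per kb, Tubb4b at 838 ± 86.4, Tubb4a at 614 ± 129, Tubb5 at 458 ± 84.9 and Tuba4a at 328 ± 16.2, each SD over 18 libraries. Each exceeded the next within all 18 libraries, except Tubb5 over Tuba4a, which held in 17. The ranges of neighbors overlapped over the 18 libraries in each of these steps. Tubb2b, at 31.7 ± 5.64, and Tuba1c, at 5.33 ± 1.04, were lower, and their ranges overlapped neither each other nor that of Tuba4a. With the length of the longest transcript instead, Tubb4b was above Tubb2a, at 1095 against 1028, so the order of that pair rests on the length chosen.

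**Figure D1:**
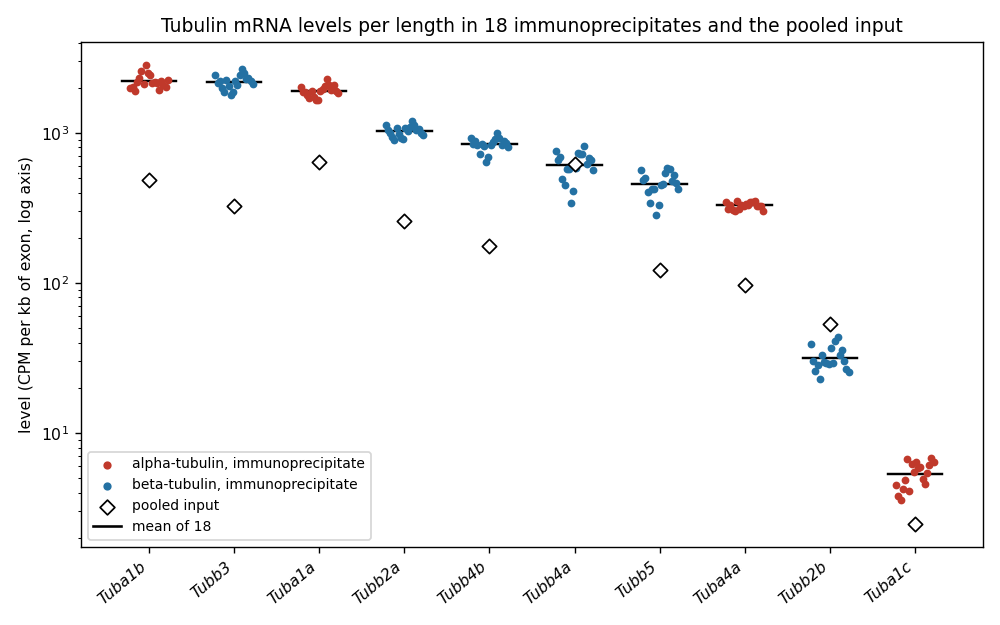
Level of the 10 tubulin mRNAs (CPM per kb of exon, log axis) in each of the 18 immunoprecipitates (points, alpha-tubulin in red and beta-tubulin in blue), their mean (bars) and the pooled input (diamonds). Tuba1b, Tubb3 and Tuba1a lie near 2000, Tubb2b and Tuba1c lie far below the others, and for Tubb4a and Tubb2b the input is not below the immunoprecipitates.

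The share of each isotype within its class differed between the immunoprecipitates and whole cord. Among the alpha members, Tuba1b held 49.7% ± 3.92 of the summed CPM per kb (SD, n = 18) against 39.5% in the input, and Tuba1a 42.8% ± 3.69 against 52.4%. Tuba4a, the isotype with no terminal tyrosine codon, held 7.37% ± 0.351 against 7.94%, and Tuba1c 0.119% ± 0.0206 against 0.203%. Among the beta members, Tubb3 held 42.5% ± 1.12 against 20.9% in the input. Tubb4a, which oligodendrocytes express strongly, held 11.8% ± 1.42 against 39.9%. Tubb2a was at 20.01% ± 1.07 against 16.6%, Tubb4b at 16.3% ± 0.510 against 11.3%, Tubb5 at 8.81% ± 0.720 against 7.89% and Tubb2b at 0.613% ± 0.0792 against 3.44%. There was 1 input library, so these differences carry no test. For 8 of the 10 members, all but Tuba4a and Tubb5, the input lay outside the range of all 18 immunoprecipitates, which for Tubb3 was 40.04% to 44.6%, for Tubb4a 8.55% to 14.1% and for Tubb2b 0.489% to 0.736%. The share of Tuba4a depended on the length used: its merged exons span 3701 bases, and with the longest transcript (2840 bases) the share was 9.06%.

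**Figure D2:**
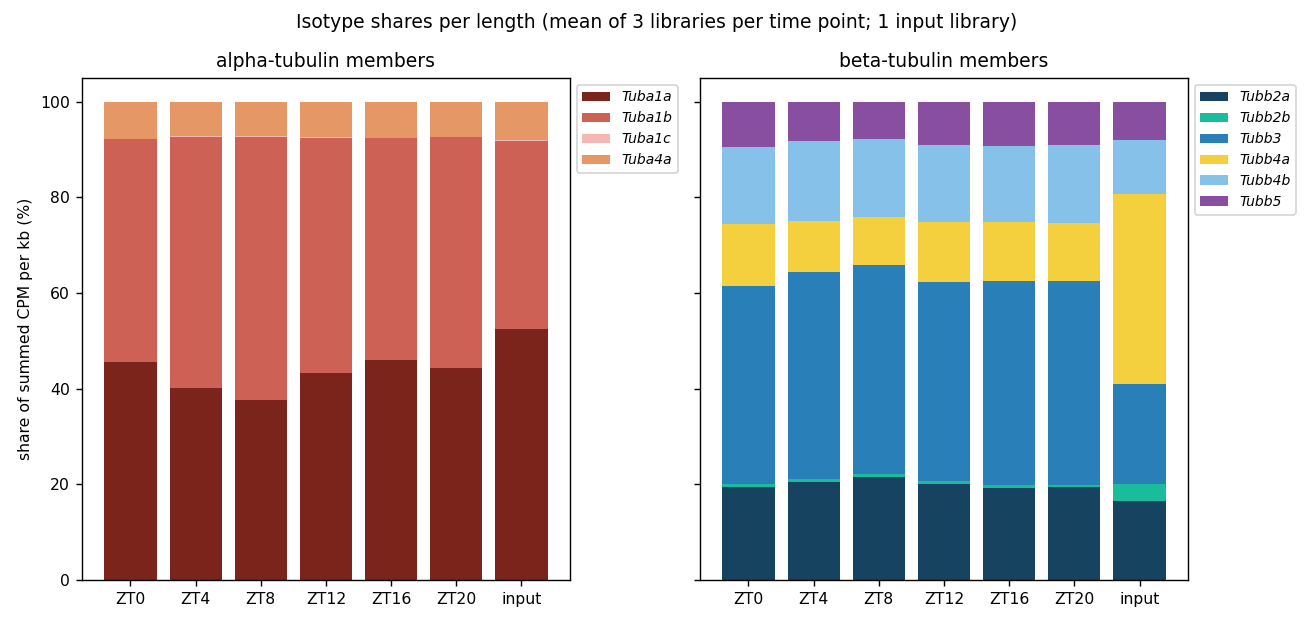
Share of each isotype in the summed CPM per kb of its class (%), as stacked bars of the mean of 3 immunoprecipitates at each time point and of the single pooled input, for alpha members (left) and beta members (right). Tubb4a takes 39.9% of the beta members in the input and 11.8% over the immunoprecipitates, and the Tuba1b share is highest at ZT8.

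Of the 10 tubulins, 8 were at least 2-fold higher in the immunoprecipitates than in the input, with all 18 immunoprecipitates above it, against 14.0% of the 16828 genes compared. Over those genes the median log2 ratio was -0.13, and for the 10 members it was 1.83. Tubb3 had the highest ratio of the members, with 3328, 4133 and 4970 CPM as the lowest, median and highest of the 18 libraries against 607 in the input (exact 95% Poisson interval 596 to 618, counting error only), a ratio of 6.74. Tubb4b, an isotype of many tissues that also serves in cilia, had a ratio of 4.76, Tuba1b 4.60, Tubb2a 3.98, Tubb5 3.73, Tuba4a 3.39 and Tuba1a 2.98. Tuba1c, at 2.15, rested on 106 input counts. Tubb4a was not called: its 18 libraries ran from 760 to 1814 CPM with a median of 1420, 9 of them above the input at 1385 (1368 to 1402). Tubb2b, an isotype of immature neurons and glia, was at 52.9 to 99.4 CPM against 123 (118 to 128) in the input, below it in all 18 libraries with a ratio of 0.591. Scaling by library totals moved the median of all genes to -0.42. Then Tuba1c was no longer called, at a log2 ratio of 0.81, and Tubb2b was called lower, at -1.05. That scaling called 32.2% of genes lower, against 25.4% with TMM.

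Between ZT0 and ZT8, Tubb4a, Tubb5 and Tubb4b fell and Tuba1b rose, by edgeR's quasi-likelihood test with Benjamini-Hochberg adjustment over 15572 genes. Of the 10 members, 3 were thus lower and 1 higher at ZT8, where 9.02% and 8.95% of all genes tested were called lower and higher. The 6 beta members all had a negative fold change, with a median of -0.28, and the 4 alpha members a median of 0.15, where the median of all genes was -0.003. Many genes were called in this contrast, and so the count of members is not particular to the tubulins.

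Tubb4a, a beta-tubulin of oligodendrocytes and mature neurons, was at 1697, 1476 and 1541 CPM in ZT0 replicates 1, 2 and 3 and at 1284, 760 and 909 at ZT8. Every ZT8 library was below every ZT0 library, with replicate 2 the lowest. The log2 fold change was -0.67 ± 0.15 (SE), with an adjusted p of 0.00835 (edgeR). Tubb5, the ubiquitous beta-tubulin also called class I, was at 1888, 1612 and 1659 CPM at ZT0 and at 1404, 944 and 1101 at ZT8. The groups did not overlap here either, and replicate 1 of ZT8 was again nearest to ZT0. Its log2 fold change was -0.58 ± 0.13, with an adjusted p of 0.00803 (edgeR).

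Tubb4b was at 1930, 1762 and 1834 CPM at ZT0 and at 1699, 1330 and 1436 at ZT8, with a log2 fold change of -0.31 ± 0.09 and an adjusted p of 0.0301 (edgeR). Tubb3 was at 4516, 3996 and 4159 CPM and then at 3825, 3328 and 3501, with a log2 fold change of -0.25 ± 0.09 and an adjusted p of 0.0507 (edgeR), which missed the threshold. Both genes had no overlap between the groups. Tuba1a, at -0.20 ± 0.08 (adjusted p = 0.0782, edgeR), and Tubb2a, at -0.17 ± 0.08 (adjusted p = 0.169, edgeR), had the same sign and did not overlap, but were not called. In all, 6 members had every ZT8 library below every ZT0 library, as did 17.7% of all genes tested.

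Tuba1b went the other way. It was at 3751, 3790 and 3582 CPM at ZT0 and at 3991, 5296 and 4726 at ZT8, each ZT8 library above each ZT0 library, as for 16.9% of genes. The log2 fold change was 0.33 ± 0.10, with an adjusted p of 0.0215 (edgeR). Tuba1c, which shares most of its coding sequence with Tuba1b, was at 0.42 ± 0.18 (adjusted p = 0.115, edgeR) and its groups overlapped. It ran from 8.12 to 10.3 CPM at ZT0 and from 9.46 to 14.2 at ZT8. Tuba4a (-0.03 ± 0.08) and Tubb2b (-0.12 ± 0.16) were not called.

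Since reads of the 3 close alpha genes can be divided wrongly, their counts were also added up and tested as 1 row, an alternative chosen after seeing the data. The sum of Tuba1a, Tuba1b and Tuba1c was 7191 ± 211 CPM (SD, n = 3) at ZT0 and 7715 ± 582 at ZT8, with a log2 fold change of 0.10 ± 0.07 (SE) and an adjusted p of 0.356 (edgeR). The sum of all 4 alpha members gave 0.08 ± 0.07 with an adjusted p of 0.443 (edgeR). The sum of the 6 beta members gave -0.35 ± 0.09 with an adjusted p of 0.0148 (edgeR). The sums were not tested with libraries left out, and without ZT8 replicate 2 the single members called fell to 0. Whether the division of reads had a part in the separate values of Tuba1a and Tuba1b was not tested. Tubb4a and Tubb5 share no 150-base window with another gene.

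**Figure D3:**
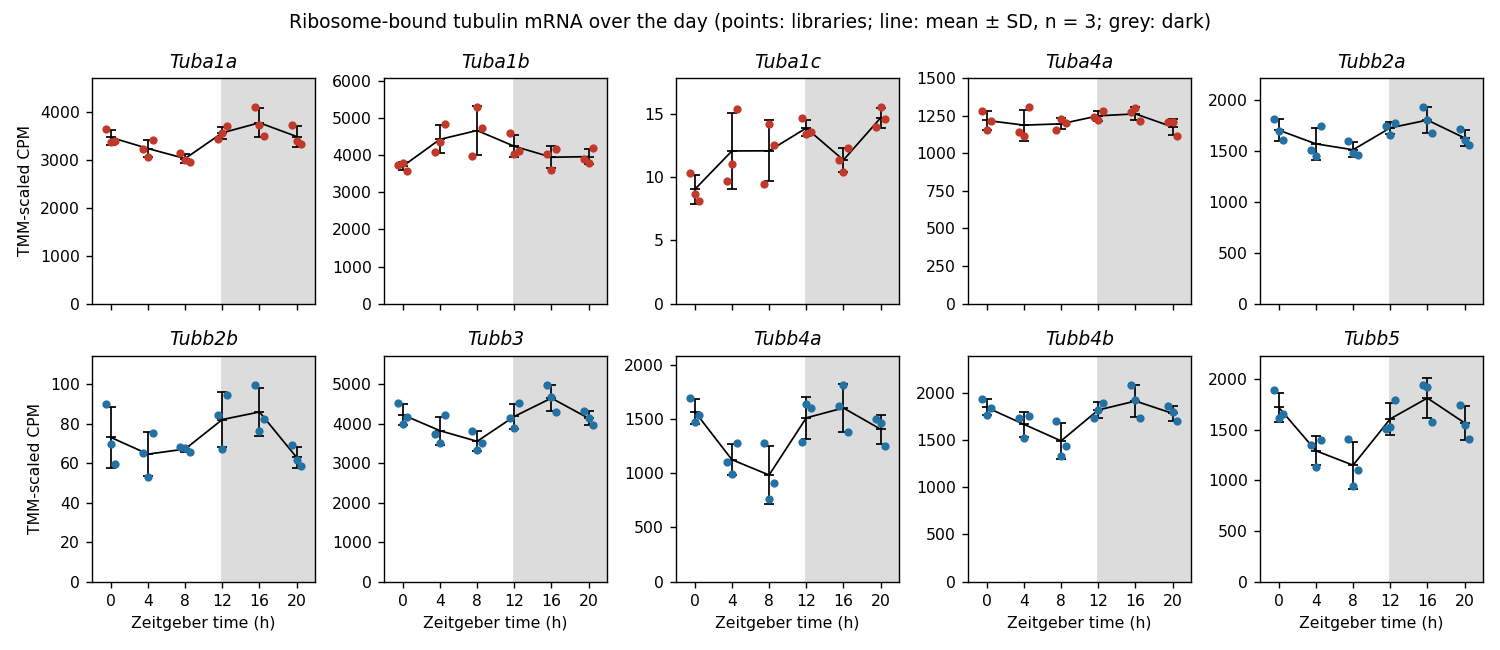
TMM-scaled CPM of each tubulin by Zeitgeber time (h), with each library as a point, the mean and SD of 3 libraries as line and bars, and the dark phase in grey. The means of Tubb4a and Tubb5 are lowest at ZT8, with ZT4 next, and that of Tuba1b is highest at ZT8.

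These calls leaned on single libraries. Without ZT8 replicate 2, 0 members were called between ZT8 and ZT0, and 274 of all genes (1.72%) in place of 2798 (18.0%). The count was 1 without ZT0 replicate 1 (3.99% of all genes), 2 without ZT0 replicate 3 (7.05%) and 2 without ZT8 replicate 3 (6.99%), and it was 7 without ZT8 replicate 1 (24.9%). The calls over all genes thus fell and rose with those of the members. The fold changes moved less than the calls: without ZT8 replicate 2, Tubb4a was at -0.53 and Tubb5 at -0.47, with adjusted p of 0.0658 and 0.0642 (edgeR), and Tuba1b at 0.22 with an adjusted p of 0.177 (edgeR). With the libraries of ZT0 and ZT8 alone, 2 members and 13.8% of genes were called. All 4 members kept their direction in each of the 29 alternatives. Their ZT0 and ZT8 libraries did not overlap, so leaving libraries out could hardly reverse that direction.

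Other genes moved with the tubulins at ZT8, where 9.02% of all genes were called lower than at ZT0 and 8.95% higher. Of the 7 cholinergic markers, 4 were lower, namely Chat (log2 fold change -1.74), Slc18a3, the vesicular acetylcholine transporter (-0.92), Ache, acetylcholinesterase (-0.65), and Slc5a7, the choline transporter (-0.64). None were higher, and Prph was at 0.32 with an adjusted p of 0.0508 (edgeR). The median log2 fold change of the 7 was -0.64, with 2 of them above 0. Their summed level ran from 4292 to 4764 CPM at ZT0 and from 4227 to 4682 at ZT8. Prph, at 2952 CPM over the 18 libraries, dominates that sum, which therefore says little about the other markers. Of the 7 oligodendrocyte markers, 1, Mbp, was lower (-0.46), and their sum ran from 1826 to 2205 CPM at ZT0 and from 1742 to 2001 at ZT8, with no marker at 0. With an oligodendrocyte score as a covariate, Tubb4a was at -0.67 and Tubb5 at -0.59 between ZT8 and ZT0, and both were called. Without ZT8 replicate 2, 0 of the cholinergic and 0 of the oligodendrocyte markers were called between these times, and without ZT8 replicate 3 only Chat was. The part of the cholinergic markers in the tubulin differences was not tested.

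Between ZT8 and ZT16, 6 of the 10 members rose and 0 fell (edgeR), where 9.11% and 7.80% of all genes tested were called higher and lower. This comparison shares its ZT8 libraries with the one above and is no independent repeat of it. Of these 6, 5 were beta members, Tubb2a, Tubb3, Tubb4a, Tubb4b and Tubb5, and 1 an alpha member, Tuba1a. The median log2 fold change was 0.37 for the beta members, -0.01 for the alpha members and 0.34 for all 10. Of the 7 cholinergic markers, 5 were called higher at ZT16 and 0 lower, with a median of 0.59. Of the 7 oligodendrocyte markers, 1 was higher and 0 lower, with a median of 0.18. Without ZT8 replicate 2, 0 of either list were called, and without ZT8 replicate 3 there were 2 and 1. The part of these markers in the tubulin differences was not tested.

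Tubb5 was at 1939, 1919 and 1580 CPM in ZT16 replicates 1, 2 and 3, all above the highest ZT8 library, with a log2 fold change of 0.66 ± 0.13 (SE) and an adjusted p of 0.00699 (edgeR). Tubb4a was at 1621, 1814 and 1378 CPM, a rise of 0.71 ± 0.15 with an adjusted p of 0.00832 (edgeR). For both, replicate 3 was the lowest of the ZT16 libraries. Tubb3 was at 4970, 4675 and 4294 CPM, at 0.39 ± 0.09 with an adjusted p of 0.00886 (edgeR). Tuba1a was at 4102, 3738 and 3499 CPM against 3138, 2992 and 2964 at ZT8, at 0.32 ± 0.08 with an adjusted p of 0.0104 (edgeR). Both rose without overlap. Tubb4b, at 0.36 ± 0.09 (adjusted p = 0.0153, edgeR), and Tubb2a, at 0.25 ± 0.08 (adjusted p = 0.0448, edgeR), rose as well.

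Tuba1b was at 4050, 3616 and 4183 CPM at ZT16, with a log2 fold change of -0.24 ± 0.10 and an adjusted p of 0.0851 (edgeR), so that its return was not called and its groups overlapped. Tubb2b was at 0.35 ± 0.16 with an adjusted p of 0.125 (edgeR), although its 76.2 to 99.4 CPM at ZT16 lay above its 65.6 to 68.4 at ZT8. In all, 7 members had all ZT16 libraries above all ZT8 libraries, as did 13.7% of genes. With counts added up, the alpha members gave 0.02 ± 0.07 (adjusted p = 0.912, edgeR) and the beta members 0.44 ± 0.09 (adjusted p = 0.00781, edgeR), where Tubb2a and Tubb2b together gave 0.26 ± 0.09 (adjusted p = 0.0447, edgeR). These sums were not tested with libraries left out. The count of members called fell to 0 without ZT8 replicate 2 (0.545% of all genes) or without ZT16 replicate 2 (0.45%). It fell to 3 without ZT8 replicate 3 (6.07%) or without ZT16 replicate 1 (5.53%). All 18 libraries together called 16.9% of all genes, so the calls over all genes fell as well. With the libraries of ZT8 and ZT16 alone, 0 members were called, and 1 of all 14407 genes tested. Tubb5 was between 0.54 and 0.61 without either replicate 2, with adjusted p of 0.0559 and 0.0534 (edgeR).

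**Figure D4:**
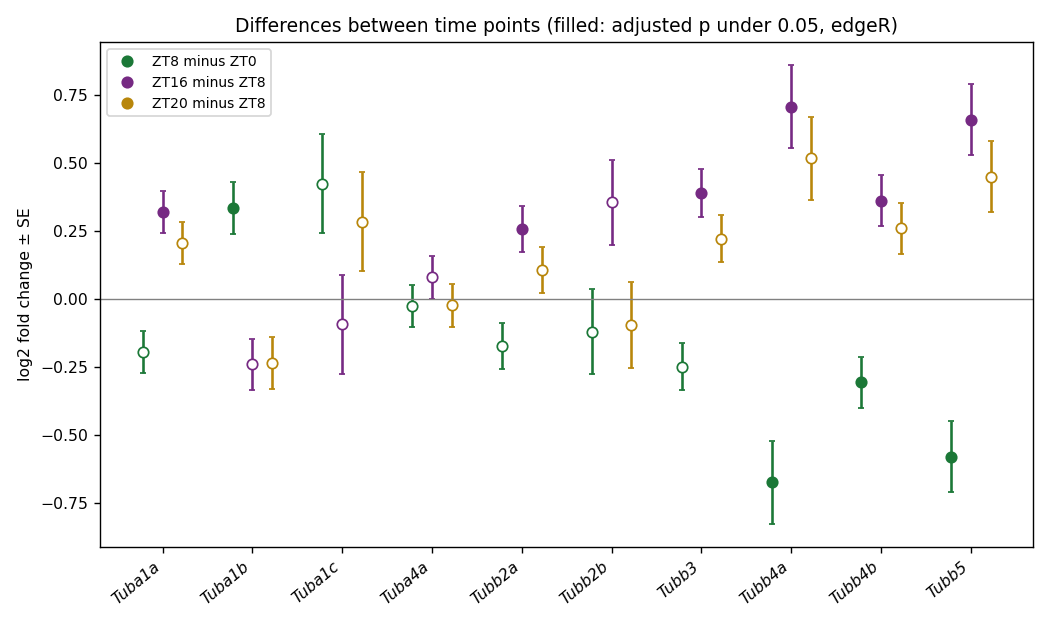
Log2 fold change with its SE for each tubulin between ZT8 and ZT0 (green), ZT16 and ZT8 (purple) and ZT20 and ZT8 (ochre), all from 1 fit of 18 libraries, with filled points where the adjusted p was under 0.05. Tubb4a and Tubb5 have the farthest excursions, from -0.67 and -0.58 to 0.71 and 0.66, and Tuba1b has the opposite sign to the beta members between ZT8 and ZT0 and between ZT16 and ZT8.

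Between ZT8 and ZT20, 0 members were called by edgeR, as were 0.00% of all genes. At an unadjusted p under 0.05 there were 6 members, where 22.3% of genes passed that mark, and DESeq2 called 2 members and 7.16% of genes. Without ZT8 replicate 1 there were 5 members, with 14.4% of genes, and without ZT16 replicate 3 there was 1, with 3.59%. Tubb5 was at 1744, 1549 and 1410 CPM at ZT20, a log2 fold change of 0.45 ± 0.13 with an adjusted p of 0.0740 (edgeR), and Tubb4a was at 0.52 ± 0.15 with an adjusted p of 0.0749 (edgeR). Both values were smaller than those between ZT8 and ZT16, but that difference was not tested in itself. In the other 12 pairs of time points 0 members were called by edgeR, with up to 7 at an unadjusted p under 0.05 (ZT16 against ZT4, where 20.3% of genes passed that mark).

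The 6 time points together were tested in 3 ways. For any difference among them, Tubb5 (adjusted p = 0.0278, edgeR) and Tubb4a (adjusted p = 0.0295, edgeR) passed, 2 of 10 members where 6.74% of genes passed. The next were Tubb3 (0.0616) and Tuba1a (0.0775), and Tuba4a was last (0.878). For Tubb5 the means were 1720, 1292, 1150, 1607, 1813 and 1568 CPM from ZT0 to ZT20, with SDs of 148, 142, 234, 159, 202 and 168 (n = 3 each). Those of Tubb4a were 1571, 1126, 984, 1513, 1605 and 1408, with SDs of 114, 144, 270, 191, 218 and 134. Their means at ZT4 lay below those at ZT0, at -0.48 ± 0.15 for Tubb4a and -0.41 ± 0.13 for Tubb5 on the log2 scale, but with adjusted p of 0.115 and 0.114 (edgeR) neither was called. Those at ZT12 lay above those at ZT8, by 0.62 ± 0.15 and 0.48 ± 0.13, with adjusted p of 0.0706 and 0.0730 (edgeR), and were not called. For Tuba4a the means stayed between 1176 and 1262 CPM, with a coefficient of variation of 4.95% over the 18 libraries, against 18.5% for Tubb5 and 20.9% for Tubb4a.

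The number of members called for any difference was 0 without ZT0 replicate 1, ZT0 replicate 3, ZT4 replicate 2, ZT8 replicate 2, ZT8 replicate 3 or ZT16 replicate 1, where between 0.0314% and 1.04% of all genes were called. It was 6 without ZT8 replicate 1, with 15.2% of all genes, and 5 without ZT16 replicate 3, with 12.8%. DESeq2 called 6 members and 16.1% of genes.

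A 24-h cosine curve fitted by edgeR was called for Tubb5 alone (adjusted p = 0.0427), where 6.24% of genes were called. The fitted log2 amplitude of Tubb5 was 0.27 and its peak lay at ZT18.4. Tubb4a (0.0544), Tubb3 (0.0563), Tuba1a (0.0579) and Tuba1b (0.0700) lay just above the threshold in adjusted p by edgeR. The fitted peaks of Tubb4a, Tubb3 and Tuba1a were at ZT18.3, ZT17.9 and ZT17.5, and that of Tuba1b at ZT8.21. Of the 10 members, 8 had their highest mean at ZT16, among them Tuba4a, whose means stayed between 1176 and 1262 CPM. The share of all genes with their highest mean at ZT16 was not computed, and a shared peak was not tested. With the oligodendrocyte score as a covariate, Tubb5 was at an adjusted p of 0.0621 (edgeR) and 0 members were called, as were 4 of all 15572 genes. DESeq2 called 5 members and 14.4% of genes. The call for Tubb5 was lost without ZT0 replicate 2 or 3, ZT4 replicate 1, 2 or 3, or ZT8 replicate 2 or 3. It was also lost without ZT12 replicate 1, ZT16 replicate 1 or 2, or ZT20 replicate 1. Each of these omissions alone left 0 members, with between 0.0124% and 4.65% of all genes called. Without ZT8 replicate 1 there were 2 (6.95% of all genes), without ZT12 replicate 3 there were 3 (10.1%), without ZT16 replicate 3 there were 3 (9.61%), and without ZT20 replicate 3 there were 6 (16.6%).

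JTK_Cycle, a rank test that the study also used, called 0 members when adjusted over all genes, where 0.0385% of genes were called. The paper, by its own run of JTK_Cycle at an adjusted p under 0.05, reported a far larger share of rhythmic genes and named Tuba1a among them. The reason for that difference was not tested. Tubb5 had the lowest adjusted p of the members, 0.0814 by JTK_Cycle. Adjusted within the gene alone, without adjustment over genes, 5 members passed, Tuba1a, Tubb3, Tubb4a, Tubb4b and Tubb5. In that setting 15.8% of genes passed, a share nearer to the paper's than 0.0385%. All 5 had a best period of 20 h with a peak at ZT16, and Tuba1b had its peak at ZT8 with an adjusted p of 0.1002 by JTK_Cycle within the gene. Without ZT16 replicate 3, 3 members were called when adjusted over all genes, as were 754 of 16088 genes (4.69%).

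Ratios between members within a library restate the values above and are no further result. Such ratios do not depend on library size. The ratio of Tuba1b to Tuba1a in CPM was 1.07 ± 0.05002 (SD, n = 3) at ZT0. It went through 1.37 ± 0.0902 at ZT4 to 1.55 ± 0.253 at ZT8 and was 1.19 ± 0.121 at ZT12. In the dark it was 1.05 ± 0.126 (ZT16) and 1.14 ± 0.111 (ZT20). The lowest ZT8 library was at 1.27 and the highest ZT0 library at 1.12, so those groups were apart. The Tuba1b share of the alpha members went from 46.7% ± 1.21 at ZT0 to 55.2% ± 3.94 at ZT8 and 46.3% ± 2.82 at ZT16. The coding sequences of Tuba1a and Tuba1b are 98.3% identical. The sum of Tuba1a, Tuba1b and Tuba1c was not called between ZT8 and ZT0 (adjusted p = 0.356, edgeR). These ratios and those below were chosen after their values were seen and are given with no test. No share over other pairs of genes was computed for groups that did not overlap.

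The ratio of alpha to beta members, both as summed CPM per kb, was 0.778 ± 0.0291 at ZT0, 0.949 ± 0.0478 at ZT4 and 1.04 ± 0.176 at ZT8. It was 0.855 ± 0.0509 at ZT12, then 0.784 ± 0.0614 (ZT16) and 0.842 ± 0.0450 (ZT20). Beta members as a sum went from 5454 ± 336 CPM per kb at ZT0 to 4368 ± 458 at ZT8 and 5823 ± 472 at ZT16, and alpha members from 4238 ± 126 to 4501 ± 318 and 4549 ± 217. Within the beta members, the ratio of Tubb5 to Tubb3 in CPM was 0.407 ± 0.0100 at ZT0, 0.322 ± 0.0422 at ZT8 and 0.390 ± 0.0212 at ZT16. Tubb5 was thus lower relative to Tubb3 in each ZT8 library, at 0.284 to 0.367, than in each ZT0 library, at 0.399 to 0.418.

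**Figure D5:**
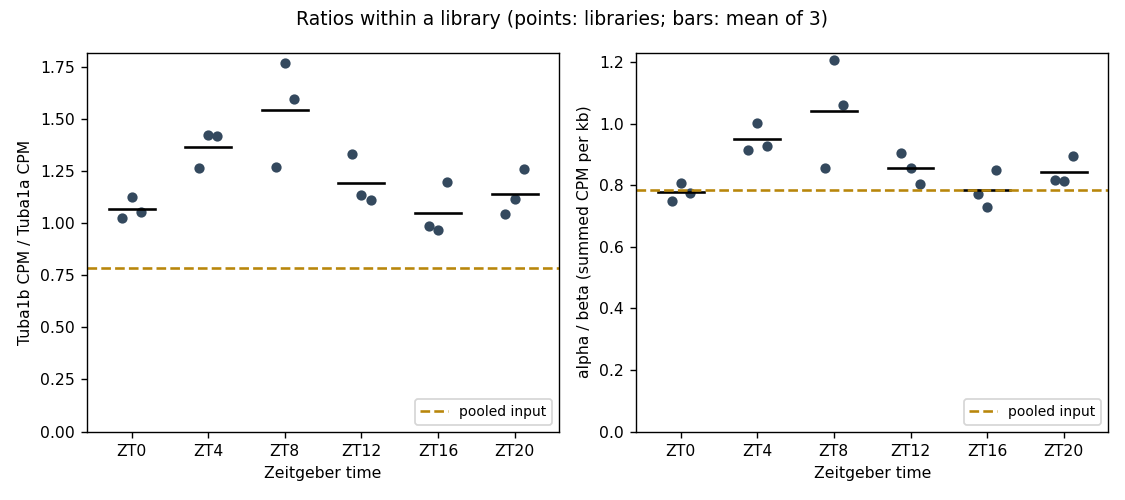
Ratio of Tuba1b to Tuba1a in CPM (left) and of alpha to beta members in summed CPM per kb (right) in each library (points) by Zeitgeber time, with the mean of 3 (bars) and the pooled input (dashed line). Both ratios are highest at ZT8, where the 3 libraries also spread most, and the Tuba1b to Tuba1a ratio lies above the input at 0.785 in all 18 libraries.

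The promoter is shown for Tubb5, because among the members with a promoter sequence it was the only one with an E-box, the letters CACGTG that clock transcription factors of the bHLH-PAS family bind. The window runs 5′ to 3′ on the minus strand, chr17:35838331-35838416 of GRCm38.p6, positions -115 to -30 from the RefSeq start, and capitals mark the motif.
Tubb5: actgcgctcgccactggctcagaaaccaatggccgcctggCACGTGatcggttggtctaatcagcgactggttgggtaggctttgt
Promoters of 250 bases before and 50 after the start were searched on both strands for CACGTG, which is its own reverse complement, and for the D-box TTATGTAA. Of 27025 genes, 8.09% held the E-box and 1.11% the D-box, against 1 and 0 of 9 members. A match is a description of letters and not of a bound site.

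Of the other tubulin genes, 6 of 10 passed the filter on low counts. Tubg1, a gamma-tubulin that nucleates microtubules, fell from 98.2 ± 9.46 CPM (SD, n = 3) at ZT0 to 62.5 ± 15.1 at ZT8 and rose to 99.5 ± 14.1 at ZT16, with log2 fold changes of -0.65 ± 0.15 and 0.67 ± 0.15 (SE) and adjusted p of 0.00875 and 0.00886 (edgeR). It was the only one of the 6 called in these comparisons, which called 9.02% of all genes lower and 9.11% higher, respectively. Without ZT8 replicate 2 it was not called, at -0.53 and 0.54 with adjusted p of 0.0661 and 0.0662 (edgeR). Tubb6, a beta-tubulin at 8.81 CPM, was at -0.45 and 0.54, with adjusted p of 0.106 and 0.0553 (edgeR). Tubg2 was at -0.27 and 0.29.

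Of 23 tested genes of tubulin folding, 6 were higher at ZT8 than at ZT0 and 1 was lower, and 6 were lower at ZT16 than at ZT8 and 1 higher, where 8.95% of all genes were called higher and 9.02% lower in the first comparison and 9.11% higher and 7.80% lower in the second. Their medians were -0.01 and -0.17, against -0.003 and 0.005 for all genes. Without ZT8 replicate 2, 0 of the 23 were called in either comparison, and without ZT8 replicate 3 there were 3 in each. The 6 that rose at ZT8 were the prefoldin subunits Pfdn2, Pfdn5 and Pfdn6, the tubulin cofactors Tbca and Tbcb, and Pdcl3, a phosducin-like helper of the chaperonin. Pfdn2 was at 162 ± 18.0 CPM at ZT0 and at 266 ± 45.4 at ZT8 (0.72 ± 0.17, adjusted p = 0.00901, edgeR). Pdcl3 went from 32.1 ± 4.44 to 48.1 ± 6.21 (0.59 ± 0.13, adjusted p = 0.00864, edgeR). Tbcd, the cofactor that binds beta-tubulin, fell with the beta members, from 123 ± 5.36 to 96.3 ± 6.94 (-0.35 ± 0.10, adjusted p = 0.0227, edgeR), and was at 130.0 ± 7.82 at ZT16. No subunit of the CCT chaperonin was called. Against the input, 15 of the 23 were higher and 0 lower, where 14.0% and 25.4% of the 16828 genes compared were. Other lists differed: 2 higher and 0 lower of 6 other tubulins, and 4 and 5 of 21 genes of modification. It was 0 and 3 of 12 genes of autoregulation, and 9 and 3 of 33 microtubule-associated proteins.

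Of 12 genes of tubulin mRNA autoregulation, 0 were called between ZT8 and ZT16 (edgeR), where 9.11% of all genes were higher and 7.80% lower. At ZT8, 1 of the 12 was higher than at ZT0 and 0 lower, where 8.95% and 9.02% of all genes were. That gene was Cnot6l, a catalytic deadenylase of CCR4-NOT, at 8.37 ± 1.59 CPM at ZT0 and 12.8 ± 1.92 at ZT8 (0.61 ± 0.21, adjusted p = 0.0484, edgeR), and it was not called without ZT8 replicate 2 or without ZT8 replicate 3. Cnot8, another deadenylase, was at 0.26 ± 0.12 (adjusted p = 0.138, edgeR), and Cnot1, the scaffold of the complex, at -0.04 ± 0.11 (adjusted p = 0.866, edgeR).

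Of 20 tested genes of tubulin modification, 4 were higher and 3 lower at ZT8 than at ZT0, where 8.95% and 9.02% of all genes were. At ZT16, 3 were higher and 4 lower than at ZT8, where 9.11% and 7.80% of all genes were. Sirt2, a tubulin deacetylase that is abundant in oligodendrocytes, fell from 83.7 ± 16.3 CPM at ZT0 to 29.6 ± 17.1 at ZT8 (-1.51 ± 0.33, adjusted p = 0.00755, edgeR) and was at 81.6 ± 26.6 at ZT16. Ttll1, a polyglutamylase, fell from 52.2 ± 5.39 to 25.3 ± 6.42 (-1.05 ± 0.23, adjusted p = 0.00762, edgeR). Svbp, the partner of the vasohibins that remove the terminal tyrosine, rose from 5.73 ± 0.924 to 10.8 ± 1.75 (0.92 ± 0.26, adjusted p = 0.0199, edgeR). Without ZT8 replicate 2, 0 of the 20 were called in either comparison, with Sirt2 at -1.20 (adjusted p = 0.0559, edgeR) between ZT8 and ZT0, and without ZT8 replicate 3 only Sirt2 and Ttll1 were called.

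Of 33 microtubule-associated proteins, 7 were higher and 7 lower at ZT8 than at ZT0, where 8.95% and 9.02% of all genes were. At ZT16, 6 were higher and 6 lower than at ZT8, where 9.11% and 7.80% of all genes were. Stmn3, a stathmin that sequesters tubulin dimers, rose from 2841 ± 418 CPM to 5808 ± 1372 (1.03 ± 0.21, adjusted p = 0.00593, edgeR) and was at 3091 ± 1024 at ZT16. Camsap1, which binds minus ends, rose from 121 ± 5.22 to 159 ± 10.7 (0.40 ± 0.09, adjusted p = 0.00765, edgeR). Map6, which stabilizes microtubules, fell from 363 ± 40.5 to 221 ± 43.6 (-0.72 ± 0.16, adjusted p = 0.00734, edgeR). The list thus split evenly in direction. Without ZT8 replicate 2, only Stmn3 was called between ZT8 and ZT0, at 0.86 with an adjusted p of 0.0483 (edgeR), and 0 of the 33 between ZT16 and ZT8. Without ZT8 replicate 3 there were 5 in each comparison.

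The genes whose log2 CPM followed the mean of the 10 tubulins most closely over the 18 immunoprecipitates, among 8661 genes outside the tubulins with a mean of at least 10 CPM, were Flywch1 (Pearson r = 0.944), Npas1 (0.911), Pdk2 (0.906), Slc41a3 (0.901) and Gpi1 (0.900). The points share libraries and the time points. Each member is itself part of that mean, which raises its own correlation with it. Of the members, Tuba1b ran against the mean (Pearson r = -0.387). Tuba1c (0.194) and Tuba4a (0.721) followed it less closely than the remaining members.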

How the data were processed

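Stranded mRNA libraries were read from both ends, and per the labels the reads were aligned with STAR 2.7.5 to mm10 and quantified with RSEM. The authors deposited expected counts per gene, not normalized, for 18 immunoprecipitates and 1 pooled input. In each library 1.90% to 3.69% of genes had a value that was not whole, since RSEM divides reads that fit several genes by a model. The annotation behind the table is uncertain, so lengths, positions and coding sequences come from GENCODE M21 (GRCm38) and promoters from RefSeq (GRCm38.p6), matched by symbol for 10 and 9 members. Some coding ends are not reported here.

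Expected counts were rounded. Genes were kept with filterByExpr of edgeR 4.0.16 (R 4.3.3), which left 15572, all 10 members among them, and scaled by TMM. The quasi-likelihood test was run on the 18 immunoprecipitates for any time point difference, for a 24-h cosinor and for all 15 pairs of time points, with Benjamini-Hochberg adjustment over all genes tested at 0.05. The common coefficient of variation between animals was 19.2%. JTK_Cycle used log2 CPM with a prior count of 2, periods of 20, 24 and 28 h (18 templates) and the exact null. The input was compared without a test: a gene counted as higher or lower at a 2-fold ratio of mean CPM with all 18 immunoprecipitates on that side, among genes that passed the filter or had 10 input counts, with an input of 0 counts set to 3. Intervals cover counting error only, since reads carry no molecular identifiers. Python 3.11.15 and scipy 1.17.1 were used for these steps. The tests were checked on simulated data.

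The 10 members, the lists and the tests were chosen with earlier results of these data known. The rule for named genes took all members, up to 3 genes of each list with the lowest p for any time point difference, and the 5 genes outside the tubulins most correlated with the mean of the members. Marker genes, ratios between members and called genes beyond these were named after their values were seen. The alternatives were DESeq2 1.42.0 as a test and its size factors, library totals, filters of 10 counts or 1 count, a replicate block, an oligodendrocyte score, 2 time points alone, JTK_Cycle adjusted within the gene or with a single period of 24 h, a 1.5-fold threshold, the longest transcript, near-identical members added up, and each library or replicate number left out.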

Additional observations from a re-analysis of the deposited data

How the results depend on the processing

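The number of tubulins called for any time point difference, 2 by edgeR, was 6 with DESeq2 and from 0 to 6 with libraries left out. The cosinor called 1, and 3 with library totals (5.63% of all genes) and 2 with a filter of 1 count (9.18%). It called 0 with the oligodendrocyte score (0.0257%), 5 with DESeq2 (14.4%) and 0 to 6 when libraries were left out. Between ZT8 and ZT0 there were 4, and 2 with those time points alone and 0 to 7 with libraries left out. Between ZT16 and ZT8 there were 6, and 0 with those time points alone, where 1 of all genes was called, and 0 to 7 with libraries left out. Between ZT20 and ZT8 there were 0, and 2 with a filter of 1 count (6.41% of all genes). There were also 2 with DESeq2 (7.16%), and 0 to 5 with libraries left out. JTK_Cycle called 0, and 5 when adjusted within the gene alone and 0 to 3 with libraries left out. Against the input 8 were called, and also 8 with any single immunoprecipitate left out. Leaving out a library also leaves fewer samples to test. The cause of the other changes was not tested.

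The values of uncalled members near 0 changed sign in some settings. With libraries left out, Tuba4a ranged from -0.0948 to 0.0133 and Tubb2b from -0.247 to 0.0579 between ZT8 and ZT0, Tuba1c from -0.228 to 0.108 between ZT16 and ZT8, and Tuba4a from -0.0552 to 0.0209 between ZT20 and ZT8, where library totals gave 0.0035. Over all members, comparisons of time points and alternatives, 775 results kept direction and call, 59 lost a call, 27 gained one and 9 changed sign.

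The labels number the replicates alike at each time, but libraries of the same number did not deviate together, with correlations from -0.151 to 0.176 over 45 pairs (median -0.004), against -0.210 to 0.183 over 90 pairs of different numbers. With a replicate block, 5 members and 17.7% of all genes were called between ZT8 and ZT0 (Tubb3 being added at an adjusted p of 0.0430, edgeR). There were 6 members (16.6%) between ZT16 and ZT8, 2 (6.45%) for any difference and 1 (4.97%) by the cosinor. Between ZT20 and ZT8 and by JTK_Cycle there were 0, with 0.045% and 2.29% of all genes. Members of near-identical sequence depend on how RSEM divided reads.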
